A study of Mus musculus with 2 samples.

Results

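The 10 genes described here belong to interleukin-6 (IL-6) and interleukin-1 (IL-1) signalling and were followed in single mouse liver cells: the receptor genes Il6ra, Il6st, Osmr and Il1r1, the receptor antagonist gene Il1rn, the signal transducer Stat3, its feedback inhibitor Socs3, the transcription factors Cebpb and Cebpd, and the nuclear cofactor Bcl3. They were taken by symbol from the 31053 genes of the deposited matrices, and all 10 were found. The cells came from livers of C57BL/6 mice that had eaten chow, or a NASH diet rich in fructose, fat and cholesterol, for 6.5 weeks. NASH stands for non-alcoholic steatohepatitis. Each diet was 1 library made with a droplet kit that reads the 3′ ends of transcripts and counts molecules by unique molecular identifiers (UMIs). Livers had been digested with collagenase and the cells separated on Percoll, so the share of a cell type in a library also reflects the isolation. The sources used here do not give the age or the number of the mice. With 1 library per diet no difference between diets could be tested, and replicate spread is unknown. The 95% intervals below cover counting error only and leave out the spread between mice and between cells.

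IL-6 binds its receptor, encoded by Il6ra, and the complex recruits the shared receptor chain gp130, encoded by Il6st. Kinases of the JAK family then phosphorylate STAT3, which drives target genes that include Socs3, whose product shuts the receptor complex down. IL-1 acts through IL1R1 on NF-kB and is blocked by the antagonist encoded by Il1rn. In hepatocytes both cytokines drive the acute-phase response, in which C/EBP factors, STAT3 and NF-kB act on genes of secreted proteins such as serum amyloid A, among them Saa1 and Saa2.

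Promoter sequence was read for 9 of the 10 genes (12 transcription starts), and Cebpd had no entry. The 250 bases before each start, from RefSeq with GRCm38.p6 coordinates, were searched on both strands for TTCNNNGAA, the core to which STAT factors bind, for TTGCNNAA, a C/EBP core, and for the NF-kB consensus. These were present in 7.02%, 9.56% and 7.25% of 32851 promoters. Among the 12 starts, Socs3 held the STAT core at −154 to −146 from the start, and Il1r1 held the C/EBP core at −133 to −126. A second Il1r1 start held the NF-kB consensus at −232 to −223, and the remaining genes held none of the 3 in this window. Those 2 stretches are shown beside Saa1 and Saa2, the acute-phase genes against which the cells are ranked further on. Capitals mark the core, and no motif overlapped another. The Il1r1 stretch lies before the annotated gene, and the Socs3 stretch lies inside the annotated gene but in no annotated exon. The bases after the RefSeq start of Socs3 were not found in its GENCODE transcripts, unlike those of the other starts read here.
Socs3 (chr11:117969486-117969546, minus strand): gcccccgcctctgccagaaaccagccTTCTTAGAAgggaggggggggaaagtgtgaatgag
Il1r1 (chr1:40224921-40224980, plus strand): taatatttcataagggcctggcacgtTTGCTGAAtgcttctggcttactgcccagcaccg
Saa1 (chr7:46743129-46743188, minus strand): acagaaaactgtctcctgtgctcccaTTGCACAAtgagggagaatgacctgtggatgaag
Saa2 (chr7:46751624-46751683, plus strand): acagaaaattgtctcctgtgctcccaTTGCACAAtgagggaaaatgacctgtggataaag
The Saa1 and Saa2 stretches differed at 3 of 60 bases. Whether transcripts of the 2 genes share reads was not measured. A match describes the letters and was not measured as a bound site.

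Cell groups were set by marker genes. Barcodes with at least 5 of 10 hepatocyte markers and no other cell type's signature were called hepatocytes above 5000 UMIs, giving 2002 chow and 1092 NASH diet cells with a median of 25786 and 20403 UMIs. The median mitochondrial share of these cells was 18.4% in chow and 23.2% on the NASH diet. Endothelial cells numbered 54 and 46, Kupffer cells (the resident macrophages of the liver) 56 and 30, and other leukocytes 19 and 29. Mesenchymal cells numbered 4 and 5 and cholangiocytes 1 and 2, too few to describe. The Kupffer groups were unlike in depth, with a median of 5142 and 1408 UMIs. Hepatocyte RNA was present in all groups: Alb, the albumin gene, stood at 25315 and 36587 CPM (UMIs per 1000000 UMIs of the group) in hepatocytes, and at 1073 and 1082 CPM in endothelial cells and 1459 and 2642 CPM in Kupffer cells. Whole libraries held 71635757 and 39440182 UMIs over 7359 and 5881 barcodes, and 69 barcode sequences occurred in both.

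In hepatocytes, 5 of the 10 genes were at least 2-fold lower on the NASH diet: Il1r1, Il1rn, Osmr, Socs3 and Bcl3. None was 2-fold higher. Among all 11718 genes with at least 20 UMIs, 3.81% were 2-fold lower and 7.01% were 2-fold higher. The median log2 ratio of NASH diet over chow was −0.96 for the 10 genes and 0.14 for all genes, so every hepatocyte ratio lies 0.14 lower relative to the median gene. The median of all genes was 0.31 in intermediate and 0.12 in low-UMI hepatocyte barcodes, −0.22 in Kupffer cells and −0.01 in endothelial cells and other leukocytes. Acute-phase genes were lower too: 19 of 20 on a list were at least 2-fold lower. Saa2, which is on it, stood at 17619 CPM in chow and 287 CPM on the NASH diet. That list was chosen with earlier results of these data known.

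**Figure D1:**
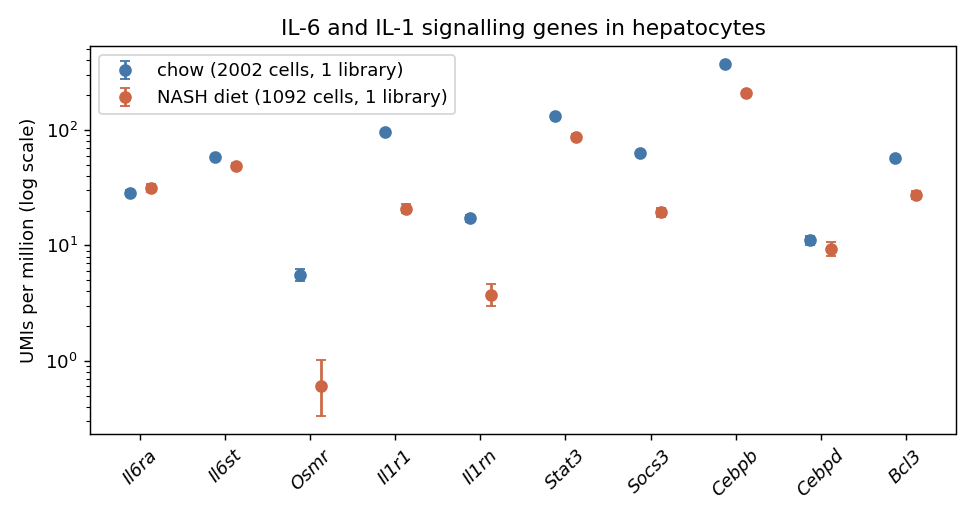
Level of each of the 10 genes in hepatocytes, in CPM on a log axis, for chow (blue, 2002 cells) and NASH diet (orange, 1092 cells). Points are 1 library each and bars are exact 95% Poisson intervals; Il6ra and Cebpd lie close together in the 2 libraries, while Osmr, Il1r1 and Il1rn lie furthest apart.

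The receptor genes of the 2 cytokines lay unequally far apart between the libraries. Il6ra (ENSMUSG00000027947, chromosome 3, 89864059 to 89913196 in GRCm38), the ligand-binding IL-6 receptor, stood at 28.6 CPM (27.1 to 30.1) in chow hepatocytes and 31.4 CPM (29.1 to 33.7) in NASH diet hepatocytes. These intervals overlapped, while that of the log2 ratio of 0.13 ran from 0.003 to 0.263, just above 0. The ratio became negative in 2 of 12 other processing settings. Il6st (ENSMUSG00000021756, chromosome 13, 112464070 to 112510086) stood at 58.3 and 49.2 CPM, a log2 ratio of −0.25 (−0.35 to −0.15). As read, both genes of the IL-6 receptor complex lay within 1.2-fold between the libraries. Endothelial RNA, scaled by the endothelial gene Stab2, would amount to 1.57% of the Il6st level in chow hepatocytes and 9.18% in NASH diet hepatocytes. It was not subtracted.

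Il1r1 (ENSMUSG00000026072, chromosome 1, 40225080 to 40317257), the signalling receptor for IL-1, stood at 96.7 CPM (94.0 to 99.4) in chow hepatocytes, and NASH diet hepatocytes had 20.9 CPM (19.0 to 22.8). That is 4.63-fold lower (4.22 to 5.10), a log2 ratio of −2.21. After every cell had been thinned to 5000 UMIs, an Il1r1 UMI was found in 34.7% (32.6 to 36.9) of the chow hepatocytes, and NASH diet hepatocytes had 8.61% (7.01 to 10.4), against 75.5% and 32.0% unthinned. In the same cells its partner chain Il1rap stood at 111 and 130 CPM, so the 2 chains of the IL-1 receptor had ratios on opposite sides of 1.

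Osmr (ENSMUSG00000022146, chromosome 15, 6813577 to 6874969), which pairs with gp130 to bind oncostatin M, had 283 UMIs in chow hepatocytes and 14 in NASH diet hepatocytes. Its level was 5.52 CPM (4.89 to 6.20) and 0.607 CPM (0.332 to 1.02). Endothelial cells carried far more of it. The 8 endothelial markers together stood at 2.96 and 6.59 CPM in hepatocytes, with none at 0. Scaled by Stab2, an endothelial gene at 0.585 and 3.08 CPM in hepatocytes, endothelial RNA would amount to 1.73% of the Osmr level in chow hepatocytes and 51.8% in NASH diet hepatocytes. Its part in the difference was not tested further.

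Il1rn (ENSMUSG00000026981, chromosome 2, 24336853 to 24351494), which encodes the secreted IL-1 receptor antagonist, stood at 17.2 CPM (16.1 to 18.4) and 3.73 CPM (2.98 to 4.61), 4.61-fold lower on the NASH diet (3.69 to 5.82). At 5000 UMIs per cell an Il1rn UMI was found in 7.44% of chow cells, and in 1.28% of cells on the NASH diet. Kupffer RNA, scaled by Clec4f, would amount to 0.110% of the chow level, since Clec4f stood at 0.448 CPM in chow hepatocytes.

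Stat3 (ENSMUSG00000004040, chromosome 11, 100885098 to 100939540) stood at 133 CPM in chow and 87.6 CPM in NASH diet hepatocytes, a log2 ratio of −0.61 (−0.68 to −0.53). Socs3 (ENSMUSG00000053113, chromosome 11, 117966079 to 117970047) stood at 62.6 CPM (60.5 to 64.8) and 19.4 CPM (17.6 to 21.2), which was 3.24-fold lower (2.93 to 3.58). The feedback inhibitor differed more between the libraries than its activator, and their intervals did not overlap. At 5000 UMIs per cell, 24.2% of chow and 8.24% of NASH diet hepatocytes carried a Socs3 UMI, and the highest cell held 11 and 7.

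Of the nuclear factors, Cebpb (ENSMUSG00000056501, chromosome 2, 167688915 to 167690418) was read in most hepatocytes. At 5000 UMIs, 52.3% of chow cells held 2 or more Cebpb UMIs, against 28.4% of NASH diet cells. In chow its level was 371 CPM (366 to 376), and on the NASH diet it was 208 CPM (202 to 214), a log2 ratio of −0.84 that ranged from −0.98 to −0.37 over 12 other settings. Cebpd (ENSMUSG00000071637, chromosome 16, 15887286 to 15891031), a related factor, stood at 11.1 and 9.33 CPM, and its log2 ratio of −0.24 ranged from −0.52 to 0.36 over the same settings. Bcl3 (ENSMUSG00000053175, chromosome 7, 19808462 to 19822770), an atypical IkB protein that joins NF-kB subunits in the nucleus, stood at 57.5 CPM (55.4 to 59.6) and 27.2 CPM (25.1 to 29.4), 2.11-fold lower. Il1r1, Il1rn and Socs3 were at least 2-fold lower in 12 of 12 other settings, and Osmr and Bcl3 in 11 of 12, the exception being a pseudocount of 5 CPM, under which the Osmr log2 ratio was −0.91 in place of −3.18.

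Genes that respond to tissue digestion were read beside these, a choice made after seeing the data. Fos stood at 120 CPM in chow and 93.0 CPM in NASH diet hepatocytes, Jun at 124 and 111 CPM, Ier2 at 70.4 and 73.7 CPM and Egr1 at 204 and 98.7 CPM. Of these, and of Atf3 (6.41 and 4.73 CPM) and Hspa1a (0.234 and 2.60 CPM), only Egr1 was 2-fold lower, and Hspa1a was higher. The part of digestion in the Socs3 and Cebpb values was not tested.

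The rest of both pathways was counted from lists of 59 genes without the acute-phase genes. Of the 46 with at least 20 UMIs in hepatocytes, 5 were 2-fold lower and 1 was 2-fold higher, with a median log2 ratio of −0.19. Among 6 other feedback inhibitors of JAK and STAT signalling, Socs2 stood at 37.8 and 16.4 CPM and Socs1 had 42 and 9 UMIs, both 2-fold lower, while Cish and Pias3 had log2 ratios of −0.26 and 0.33. None of the 8 transducers passed 2-fold: Jak1 had a log2 ratio of −0.25, Stat5b −0.24, Jak2 0.31 and Gab1 0.41. The receptor chain Lifr, which pairs with gp130 for leukaemia inhibitory factor, stood at 104 and 79.1 CPM.

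On the IL-1 side, Irak3, which restrains the receptor's kinases, had 107 and 17 UMIs (log2 ratio −1.50) and was the one gene 2-fold lower among 10 adaptors and kinases. Tab2 had a ratio of −0.80, and Tollip and Irak1 had 0.27 and 0.29. Sigirr, an inhibitory receptor of the family, stood at 16.7 and 8.68 CPM, a ratio of −0.94. Among 5 NF-kB subunits Nfkb2 had 219 and 37 UMIs (ratio −1.41) and Relb 71 and 16 (ratio −0.995), while Nfkb1 and Rel stood at −0.10 and −0.03. Tnfaip3, an inhibitor of NF-kB activation, was higher on the NASH diet, with a ratio of 0.94 (0.50 to 1.38), below 2-fold.

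Of the ligands, Il6 had 0 UMIs in hepatocytes of both libraries and Ctf1, a ligand of the gp130 family, stood at 3.00 and 6.42 CPM there. Il18 had 683 and 242 UMIs in hepatocytes (13.3 and 10.5 CPM, log2 ratio −0.34) and Il33 had 154 and 28 (ratio −1.31). Il1a, chosen after its values were seen, had 32 and 39 UMIs in endothelial cells. Il1b was read mainly in Kupffer cells and other leukocytes. It had 93 and 1 UMIs (246 and 14.5 CPM) in the former and 170 and 89 (1434 and 498 CPM) in the latter. The latter group is a mixture of lymphocytes and myeloid cells. Osm, the ligand of Osmr, had 7 and 9 UMIs in other leukocytes. Circulating proteins were not measured.

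**Figure D2:**
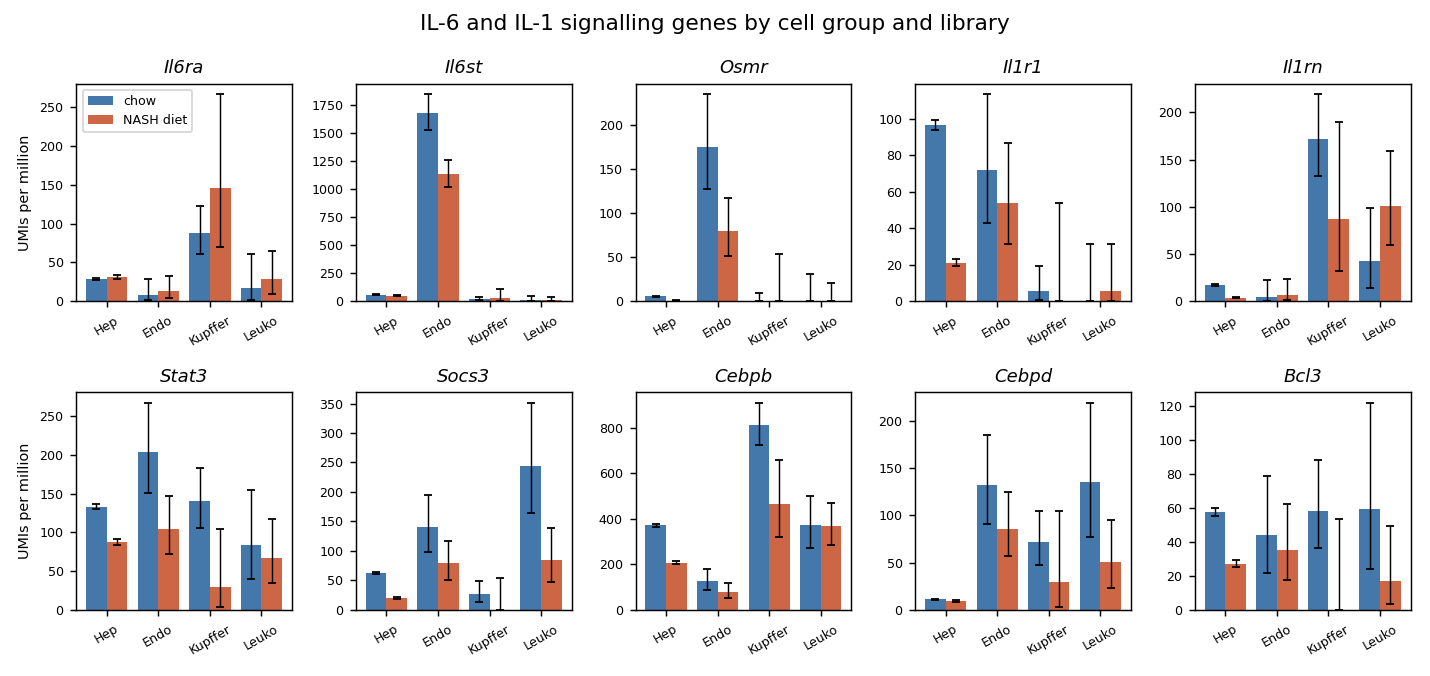
Level of each gene in hepatocytes (Hep), endothelial cells (Endo), Kupffer cells and other leukocytes (Leuko), in CPM, for chow (blue) and NASH diet (orange). Bars are 1 library each with exact 95% Poisson intervals, and each panel has its own axis from 0; Il6st and Osmr stand highest in endothelial cells, and Cebpb and Il1rn in Kupffer cells of chow.

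Il6st, Osmr and Cebpd, among others, lay further apart between cell groups than between diets. Cebpd in endothelial cells was 11.9 times the hepatocyte level in chow and 9.19 times on the NASH diet. In endothelial cells Il6st had 1684 CPM (1527 to 1853) with chow and 1139 CPM (1025 to 1264) with the NASH diet, 28.9 and 23.2 times the hepatocyte level. Osmr had the same order, at 176 CPM (128 to 236) and 79.3 CPM (51.4 to 117) in endothelial cells and 0 UMIs in Kupffer cells and other leukocytes of both libraries. Il1r1 in endothelial cells, at 71.8 CPM (42.6 to 114) and 54.0 CPM (31.4 to 86.4), lay near the chow hepatocyte level and above the NASH diet hepatocyte level. Il6ra was highest in Kupffer cells, at 87.4 CPM in chow (33 UMIs) and 145 CPM on the NASH diet (10 UMIs), and had 2 and 4 UMIs in endothelial cells. Il1r1 had 2 and 0 UMIs in Kupffer cells and 0 and 1 in other leukocytes, too few to set beside the hepatocyte level on the NASH diet.

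In endothelial cells, 1 of the 8 genes with at least 20 UMIs was 2-fold lower on the NASH diet, where 5.69% of 4905 genes were 2-fold lower and 6.69% higher; with no mitochondrial limit it was 3. This was Osmr, with 44 and 25 UMIs, and a log2 ratio of −1.15 (−1.92 to −0.41) from summed UMIs that became −0.30 as a mean over cells. Stat3 had 51 and 33 UMIs (ratio −0.96, −1.64 to −0.30) and Il6st had 422 and 359 (ratio −0.56, −0.77 to −0.36). Socs3 stood at 140 and 79.3 CPM, Cebpb at 128 and 79.3 CPM and Cebpd at 132 and 85.7 CPM. All 8 were below 0, with a median of −0.65 against −0.01 for all genes. Of the NF-kB genes, Nfkb2 had 19 and 5 UMIs (log2 ratio −2.26, −4.03 to −0.79) and was 2-fold lower, and Tnfaip3 had 2 and 19 (ratio 2.92, 0.87 to 6.06) and was 2-fold higher.

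In Kupffer cells, Cebpb had 307 UMIs in chow and 32 on the NASH diet (813 and 465 CPM, log2 ratio −0.81, −1.38 to −0.28). Stat3 had 53 and 2 UMIs (ratio −2.27, −5.36 to −0.35) and Cebpd 27 and 2 (ratio −1.30, −4.42 to 0.69, an interval that includes 0). So 2 of the 6 genes with at least 20 UMIs were 2-fold lower (5 with no mitochondrial limit), where 16.8% of all genes were 2-fold lower and 4.68% higher. Il1rn had 65 and 6 UMIs, but 1 cell held 50.8% of these in chow and 83.3% on the NASH diet. The NASH diet group held 68880 UMIs in all, so the floor of 3 UMIs set for a count of 0 is 43.6 CPM there, and the exact interval of a 0 reaches 53.6 CPM. Socs3 and Bcl3 had 0 UMIs there, and 26.5 and 58.3 CPM in chow, so a difference in Socs3 was not detectable at this depth. Bcl3 was among the 6 genes, but the floor set its log2 ratio at −0.42. At this depth a 0 could therefore not be called 2-fold lower for Bcl3. Other leukocytes were a mixture of lymphocytes and myeloid cells, whose markers together stood at 52994 CPM in chow and 18002 CPM on the NASH diet. The part of this mixture in the values was not tested. In this group Socs3 had 29 and 15 UMIs (ratio −1.55, −2.55 to −0.60), of which 1 cell held 31.0% and 33.3%. Cebpd had 16 and 9 UMIs, and Cebpb stood at 371 and 369 CPM. That made 2 of 5 genes 2-fold lower, where 9.22% of all genes were, and 1 higher (12.1%), namely Il1rn, of whose 18 NASH diet UMIs 1 cell held 72.2%. At a mitochondrial limit of 20% its ratio turned from 1.25 to −0.48.

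Barcodes with hepatocyte markers and fewer UMIs were counted apart. From 2000 to under 5000 UMIs, Il1r1 had 56 and 8 UMIs and Bcl3 41 and 17, and these were the 2 of 8 genes 2-fold lower (5.58% of all genes). Below 2000 UMIs, 7 of 8 were 2-fold lower (4 with no mitochondrial limit), Il1r1 with 61 and 5 UMIs and Socs3 with 61 and 9, where 7.8% of all genes were lower and 8.63% higher. In those droplets Saa2 reached 31236 CPM in chow and 257 CPM on the NASH diet. The low-UMI groups of the 2 libraries were unlike, with a median of 653 UMIs in chow and 1076 on the NASH diet. Their median mitochondrial shares were 6.43% and 22.6%. The part of these in the low-UMI ratios was not tested.

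Position in the liver lobule was read from 2 enzymes, Cyp2f2 of periportal and Cyp2e1 of pericentral hepatocytes, and each library's hepatocytes were split at the median of their balance, a choice made after seeing the data. Il1rn was 4.83-fold higher (4.03 to 5.82) in the Cyp2f2-rich chow hepatocytes than in the Cyp2e1-rich ones, and 1.84-fold higher (1.17 to 2.95) in the Cyp2f2-rich NASH diet hepatocytes. Cebpb went the other way, at 0.672 (0.653 to 0.691) of the Cyp2e1-rich level in chow and 0.493 (0.464 to 0.525) on the NASH diet. Cebpd and Socs3 stood at 0.785 and 0.850 in chow and at 0.281 (0.197 to 0.393) and 0.617 (0.505 to 0.751) on the NASH diet. Il1r1 was closer to even, at 0.884 and 0.771, and Stat3 was even in both, at 0.996 and 1.08.

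**Figure D3:**
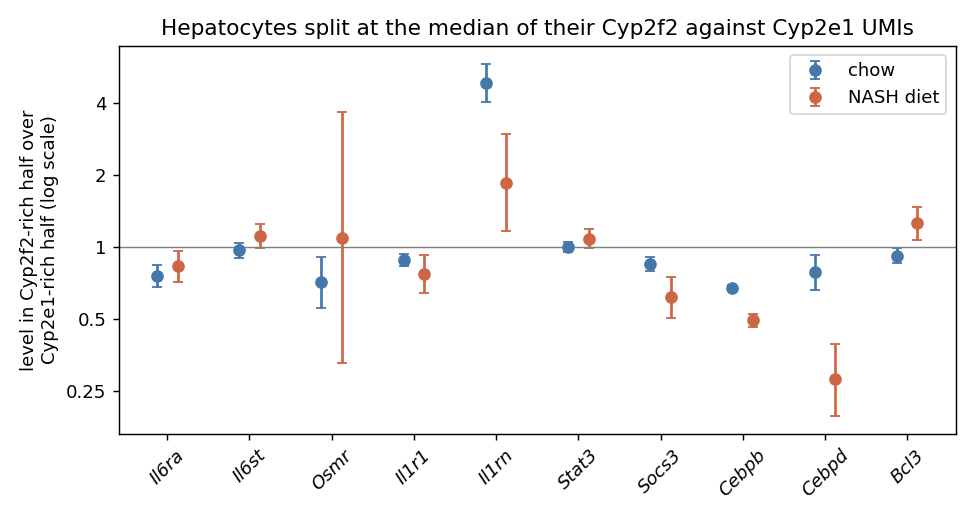
Ratio of each gene's level in Cyp2f2-rich over Cyp2e1-rich hepatocytes, split at the median of each library, on a log axis, for chow (blue) and NASH diet (orange). Points are 1 library each with exact 95% intervals and the grey line marks equal levels; Il1rn lies above the line and Cebpb and Cebpd below it in both libraries.

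The relation to Saa2 was then followed cell by cell. Hepatocytes of each library were thinned to 5000 UMIs and ranked into 4 equal bins by their Saa2 UMIs, whose medians ran 38, 71, 96 and 134 in chow. In the NASH diet library they ran 0, 0, 1 and 4, so its 2 lower bins both held 0 Saa2 UMIs. From the lowest to the highest chow bin the median mitochondrial share went from 20.1% to 16.4%, the median UMIs from 22850 to 27681 and Cyp2e1 from 1728 to 702 CPM. The part of these in the relations below was not tested, except where values without mitochondrial UMIs or within lobular classes are given.

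In chow at this depth, 1 of 7 genes with at least 100 UMIs was at least 1.5-fold higher in the top than in the bottom bin, Il1r1 at 1.65 (1.36 to 2.01), and 1 was lower, Il6ra at 0.530 (0.362 to 0.766), a call lost in 5 of 5 other settings. Over 4025 genes 1.84% were higher and 10.2% lower. Spearman's rho with Saa2 across 2002 cells was 0.123 for Il1r1, 0.117 for Il1rn and between −0.07 and 0.07 for the other 8, against 0.889 for Saa1 and 0.557 for Hp, the haptoglobin gene. The middle 95% of those 4025 genes spanned −0.143 to 0.095. Il1rn, Osmr and Cebpd, with fewer than 100 UMIs in the top and bottom bins, were not among them. All cells share 1 library, so rho is a description, and thinning left few UMIs of these genes: a second random thinning gave 1.34 for Il1r1 and moved Socs3 from 1.06 to 1.64.

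All UMIs of the same cells, ranked by their Saa2 share, gave closer values, and this was chosen after seeing the data. Il1r1 stood at 60.7, 83.7, 121 and 116 CPM from the lowest to the highest bin, 1.91-fold higher at the top (1.75 to 2.10). Il1rn stood at 7.48, 9.09, 18.8 and 32.1 CPM, 4.29-fold higher (3.40 to 5.46). These were 2 of 10 genes at least 1.5-fold higher, where 1.73% of 8225 genes were, and none of the 10 was lower, where 8.85% were. Socs3 at 1.31 (1.18 to 1.46), Bcl3 at 1.26, Il6st at 1.18, Cebpb at 1.16 and Stat3 at 1.11 lay above 1, and Il6ra at 0.805 (0.690 to 0.938) below it.

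**Figure D4:**
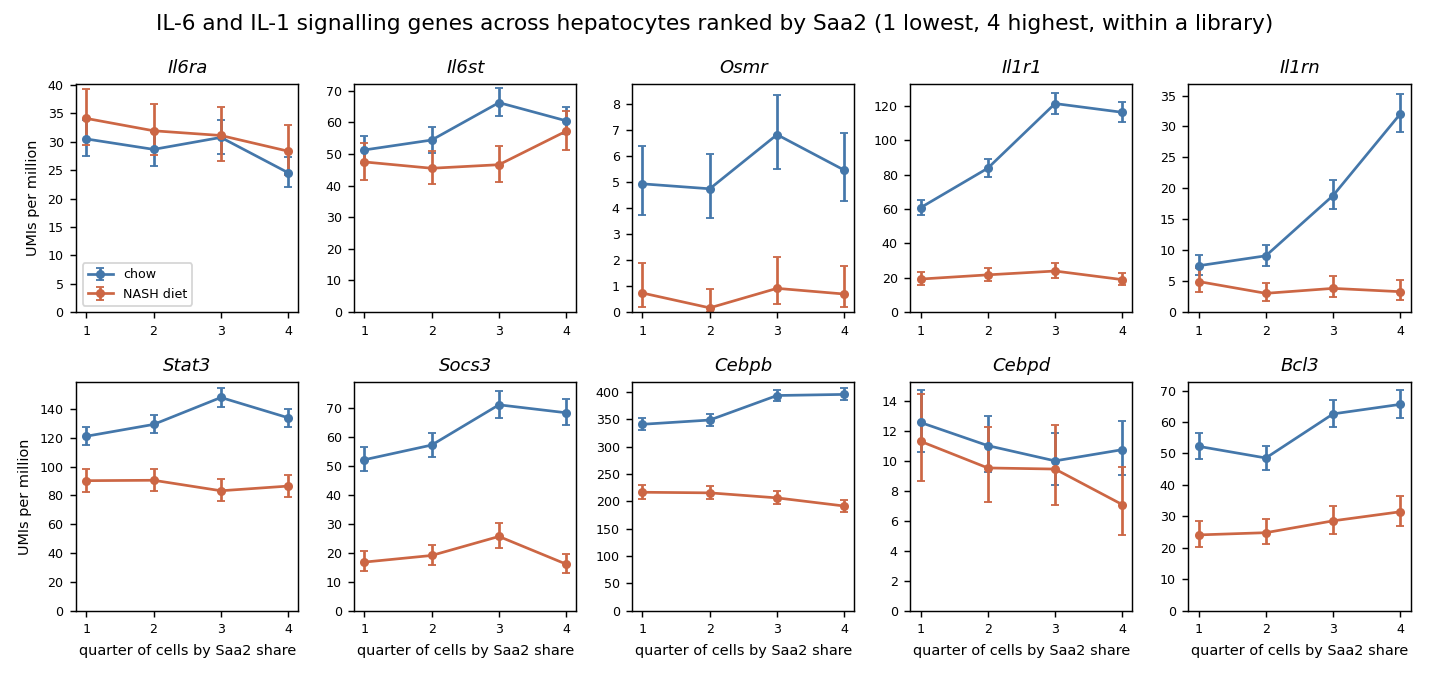
Level of each gene, in CPM, in 4 equal bins of the hepatocytes of 1 library ranked by Saa2 share (1 lowest, 4 highest), for chow (blue) and NASH diet (orange), from all UMIs. Points are summed over the cells of a bin with exact 95% Poisson intervals; in chow Il1r1 and Il1rn are higher in the upper bins and Il6ra is not. On the NASH diet Il1r1 ends at 0.983 and Cebpd at 0.626 of the lowest bin.

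Without mitochondrial and Saa UMIs, thinned chow cells gave a top over bottom ratio of 1.97 for Il1r1 and 2.97 for Il1rn. Within the Cyp2e1-rich chow hepatocytes Il1r1 was 2.09-fold (1.85 to 2.38) and Il1rn 3.79-fold (1.98 to 7.86) higher in the top Saa2 bin, and within the Cyp2f2-rich ones 1.87-fold (1.65 to 2.12) and 2.68-fold (2.11 to 3.42). Cebpb was 1.32-fold and 1.44-fold higher within these classes, more than over all cells. Il6ra stood at 1.005 and 0.860 within them.

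In the NASH diet library the thinned cells had 3 genes above 100 UMIs and none passed 1.5-fold either way (1.78% of 2812 genes were higher and 5.55% lower). With all UMIs no gene was 1.5-fold higher (0.625% of 6559 genes were) and 1 of 8 was lower (2.81%), Cebpd at 0.626 (0.411 to 0.944). Bcl3 at 1.31 (1.04 to 1.65) and Il6st at 1.21 (1.02 to 1.42) lay above 1, and Cebpb at 0.884 (0.814 to 0.960) below it. Within the Cyp2e1-rich and Cyp2f2-rich cells Cebpd stood at 0.700 (0.424 to 1.14) and 0.615 (0.249 to 1.44), both spanning 1, and Bcl3 at 1.10 (0.778 to 1.57) and 1.53 (1.12 to 2.10). Cebpb lay on opposite sides of 1 in these classes, at 0.807 (0.731 to 0.892) and 1.155 (0.995 to 1.34). Il6st stood at 1.22 (0.956 to 1.56) and 1.22 (0.977 to 1.54), both spanning 1. Il1r1 stood at 19.2, 21.6, 23.8 and 18.8 CPM, a ratio of 0.983 (0.745 to 1.30), and Il1rn had 27 UMIs in the bottom and 19 in the top bin. Saa2 itself was 0 in the bottom bin and 949 CPM in the top one, below the 7387 CPM of the lowest chow bin, and cells without a Saa2 UMI were ranked in file order. The 2 libraries' relations therefore cover different ranges of Saa2.

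Few cells of the 2 libraries shared a range of Saa2. Between 6 and 20 Saa2 UMIs per 5000, a range chosen after seeing the data, lay 88 chow and 65 NASH diet hepatocytes. Among these Il1r1 stood at 59.9 CPM (49.6 to 71.8) in chow cells, and NASH diet cells had 23.7 CPM (16.3 to 33.2). Cebpb stood at 360 (334 to 388) and 156 CPM (136 to 178), Stat3 at 125 (110 to 142) and 81.0 CPM (66.7 to 97.4), Bcl3 at 75.7 (64.0 to 88.8) and 38.0 CPM (28.5 to 49.7) and Socs3 at 40.1 (31.8 to 50.0) and 17.2 CPM (11.02 to 25.6). For each of these genes the intervals did not overlap. The share of all genes with intervals apart in these cells was not counted, so this says nothing about the set of genes. Il6ra, at 32.0 and 30.8 CPM, and Il6st, at 46.2 and 60.9 CPM, had overlapping intervals. So did Il1rn, with 10 and 5 UMIs, and Cebpd, with 23 and 10. Those of Osmr, with 13 and 1 UMIs, overlapped narrowly, at 6.60 CPM (3.52 to 11.3) and 0.717 CPM (0.018 to 3.99). Overlap does not show equal levels, and intervals of the ratio were not computed in these cells. Saa1, at 3717 and 1860 CPM, and Hp, at 4455 and 2993 CPM, were still lower in the NASH diet cells, so the range did not equalise the acute-phase level.

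**Figure D5:**
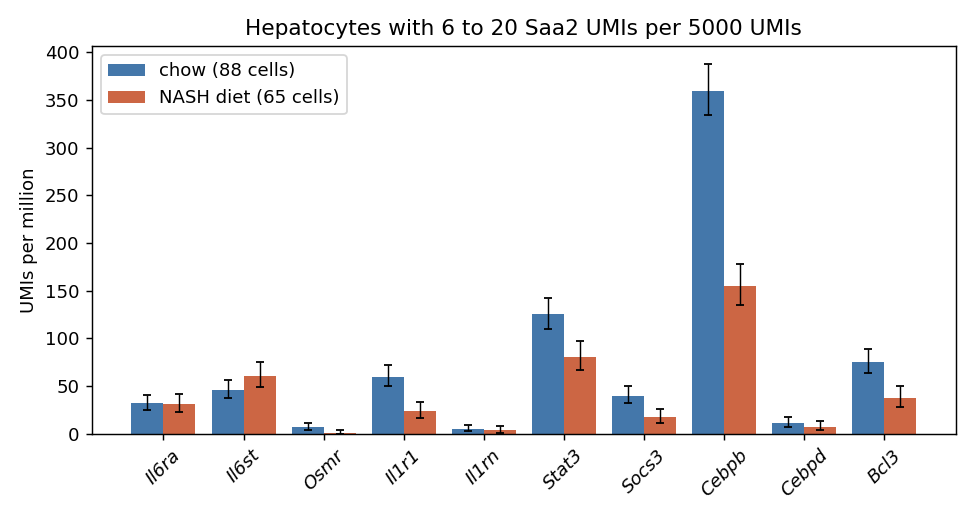
Level of each gene, in CPM, in the hepatocytes with 6 to 20 Saa2 UMIs per 5000 UMIs, for chow (blue, 88 cells) and NASH diet (orange, 65 cells). Bars are 1 library each with exact 95% Poisson intervals. Il1r1, Stat3, Socs3, Cebpb and Bcl3 are lower in the NASH diet cells with intervals apart, and Il6ra is level. The share of all genes with intervals apart was not counted.

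Genes most like Socs3 and Il1r1 were sought over 11 points, the cell groups of either library with at least 20 cells, by Pearson's r of log2(CPM + 5) among 9403 genes. For Socs3 these were Arl6ip6 (0.923), Ell (0.923) and C1galt1c1 (0.904), and for Il1r1 they were Maged1 (0.919), Cyb561 (0.907) and Tacc2 (0.902). The points share 2 libraries and differ in depth, and these are the highest of many values.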

How the data were processed

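Both libraries were 10x Genomics 3′ gene expression libraries, per the labels' protocols. The deposited matrices hold raw UMI counts. Their file headers name version 3.0.2 of Cell Ranger, while the submitters' processing notes list Cell Ranger 3.1.0, Seurat and the build mm10. The deposited merged matrix, with 86.4% of the chow UMIs, was an alternative only.

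A barcode was kept if it had 200 or more genes, 500 or more UMIs and a mitochondrial share of no more than 30%. A non-parenchymal group needed at least 3 UMIs over at least 2 of its markers and 0.2% of non-mitochondrial UMIs, and barcodes meeting more than 1 gate (21 chow, 19 NASH diet) were left out. Doublets were not removed otherwise, since the threshold of Scrublet called 0. The alternative named Scrublet removal took out a preset number of the highest-scoring barcodes, 433 of chow and 277 of the NASH diet. Of these, 139 and 15 were hepatocytes. Of the hepatocytes, 30 of chow and 36 of the NASH diet lay within 20% above the limit of 5000 UMIs.

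UMIs were summed per library and group and divided by the group's total, giving CPM. Ratios carry exact conditional binomial intervals, shares exact Clopper-Pearson intervals and levels exact Poisson intervals, all at 95%. A 2-fold count covers genes with at least 20 UMIs over both libraries in that group. With 1 library per diet there is no test, p-value or SE. Cells were thinned with seed 1. The counting functions were tested on simulated data. Python 3.11.15, scipy 1.17.1 and scanpy 1.11.5 were used. Gene positions are from GENCODE M21 (GRCm38, the assembly named mm10), matched by gene ID.

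All 10 genes are described. Of each other list at most the 2 largest and 2 smallest ratios in hepatocytes were to be named, among genes with at least 20 UMIs over both libraries. Il6, Il1a, Il1b and Osm were named outside this rule. The genes, lists and markers were chosen with earlier results of these data known.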

Additional observations from a re-analysis of the deposited data

How the results depend on the processing

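Each diet is 1 library, so no result could be checked against another mouse, and settings changed only the counting. No paired analysis was possible because there is 1 library per diet. Of the counts of genes past a fold, 117 were within 1.5 times of the main count and 21 were not. In hepatocytes the count of 2-fold lower genes went from 5 to 3 with a pseudocount of 5 CPM. A mitochondrial limit of 20%, which left 1320 chow and 326 NASH diet hepatocytes, did not move it past 1.5 times. In intermediate barcodes it went from 2 to 4 when the median of all genes was set to 0, and the count of higher genes from 0 to 1 after Scrublet removal. In low-UMI barcodes it went from 7 to 4 with no mitochondrial limit. In endothelial cells it went from 1 to 3 with no mitochondrial limit and to 2 with a gate share of 0.5%. In Kupffer cells it went from 2 to 5 with no mitochondrial limit and to 4 as a mean over cells, and the higher count from 0 to 1 with a gate share of 0.5%. In other leukocytes the higher count went from 1 to 0 at a mitochondrial limit of 20% and as a mean over cells, and the Il1rn log2 ratio turned to −0.48 at 20%.

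In the chow Saa2 bins the higher count went from 1 to 2 when thinned to 10000 UMIs, without mitochondrial and Saa UMIs and with all UMIs, each time Il1r1 and Il1rn. The lower count, Il6ra alone, went from 1 to 0 in 5 of 5 planned settings and with all UMIs, and its ratio was 1.005 within the Cyp2e1-rich cells. In the NASH diet bins the lower count went from 0 to 1 with all UMIs. The causes were not tested.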
